A study of Caenorhabditis elegans with 2 samples.

Results

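ZIP-4 belongs to the bZIP transcription factors, which bind DNA as pairs joined by a leucine zipper, and its binding was examined at 8 neuronal genes of Caenorhabditis elegans. They are 8 of 19973 protein-coding genes: snb-1, unc-64, ric-4, unc-18, unc-13 and snt-1, which act in vesicle fusion, and egl-3 and egl-21, which act in neuropeptide processing. These genes were chosen by their function and with the peak lists described here already known, so what follows describes them and carries no test. A region was given to a gene when its summit lay in the gene or within 2000 bp upstream of one of its transcript starts. Snb-1 and egl-21 were set apart as a pair in advance, from their peaks in these same lists.

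The data came from chromatin immunoprecipitation and sequencing (ChIP-seq) of whole first-stage (L1) larvae of strain OP590, of pooled sex and 6 hours of age. All worms carried the unc-119(tm4063) allele and the transgene wgIs590, which holds zip-4 with TY1, EGFP and 3xFLAG tags and an unc-119(+) marker. All were starved after bleaching, and an antibody to GFP was used on sonicated chromatin. There was 1 group with 2 biological replicates, with no worms lacking the tag and none in another feeding state. The tagged protein was made from a transgene, and whole larvae were used, so the cells in which a gene was bound are not known. Expression was not analysed here, so neuronal markers could not be checked.

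Neurons release small transmitters from synaptic vesicles and peptides from dense core vesicles. Both kinds of vesicle fuse with the plasma membrane when a vesicle SNARE protein, synaptobrevin, zips together with the membrane SNAREs syntaxin and SNAP-25. Neuropeptides are cut from longer precursors inside the vesicle, first by a proprotein convertase and then by a carboxypeptidase that trims the exposed basic residues.

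Each list gives for each region a signal value, the peak caller's own measure of strength, whose scale is not stated, and a q-value. Both replicates and their pooled reads each had 30000 regions, of which 1461 pooled, 1558 replicate 1 and 1428 replicate 2 regions reached a q-value of at most 0.05. The remaining regions are weak by this measure. The optimal set, which the authors kept by the irreproducible discovery rate (IDR) method, held 1290 peaks. That method scores the agreement of ranks between lists. These peaks were the 1290 pooled regions of highest signal value. Values are compared within a list, and lists are set beside each other by rank, where rank 1 is the strongest region. Depth is not given in the sources used here.

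By the 2000 bp rule, 4 of the 8 genes had an optimal peak. They were snb-1, unc-64, unc-18 and egl-21, and the same 4 had a pooled region with a q-value of 0.05 or less. Over all protein-coding genes, 7.91% had an optimal peak in such a window and 8.72% had a pooled region at that q-value. Because these peaks were known when the genes were chosen, nothing is read from the difference. Any pooled region at all was found at 8 of 8 genes and at 74.1% of protein-coding genes, which leaves little to be learned from the presence of a weak region.

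Which genes stand out depended on the measure. Only snb-1 and egl-21 of the 8 had an optimal peak in the promoter, taken to reach from 1000 bp before a start to 200 bp past it, against 5.70% of protein-coding genes. By contrast, snb-1 and unc-64 were the only ones of the 8 with a region among the 1290 strongest of each replicate taken alone, against 5.99% of protein-coding genes. Snb-1 was in each of these pairs, and egl-21 was in the promoter pair alone.

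The summit sequences of the optimal peaks are shown first. Of the 4, 2 hold the word TTGCGAAA within 50 bp, beside 16.8% of all optimal peaks, and the unc-18 summit lies at a tRNA gene. The word was picked out in these data by earlier work, so nothing is read from that difference. Coordinates are on ce11 and letters are from the RefSeq assembly of that build. For snb-1 and unc-64 the 101 bases around the summit are given on the strand that reads TTGCGAAA, which is opposite to the gene in both, with that word in capitals. For unc-18 the gene's strand is given, with bases of the tRNA gene in capitals. For egl-21 the 64 bases that end just before the annotated transcript start are given on the gene's strand.
snb-1, V:6656827-6656927, plus strand: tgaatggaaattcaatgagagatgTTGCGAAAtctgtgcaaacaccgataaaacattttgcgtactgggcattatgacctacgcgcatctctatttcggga
unc-64, III:13278234-13278334, minus strand: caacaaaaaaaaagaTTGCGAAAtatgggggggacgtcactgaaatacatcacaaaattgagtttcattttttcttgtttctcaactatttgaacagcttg
unc-18, X:7680976-7681076, plus strand: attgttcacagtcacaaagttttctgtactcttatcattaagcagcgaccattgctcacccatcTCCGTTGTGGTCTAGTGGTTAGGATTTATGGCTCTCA
egl-21, IV:10481845-10481908, minus strand: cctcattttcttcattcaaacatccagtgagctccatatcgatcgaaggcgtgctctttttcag

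Snb-1 (WBGene00004897, V:6655562-6656501, minus strand) encodes synaptobrevin, the SNARE protein of the vesicle membrane. Its peak, at V:6656697-6657027, had a pooled signal value of 1279.4, the tenth highest in the list at rank 10. In replicate 1 the signal value was 885.7 at rank 9, and in replicate 2 it was 395.1 at rank 11. The peak thus held almost the same place in the 3 lists. Its q-values were 6.06e-04, 5.78e-04 and 0.00106, each the lowest value that its list contains. The summit lay 376 bp upstream of the single annotated start, and the replicate summits lay 0 and 9 bp from it. The same summit lies 1428 bp upstream of syx-18, which encodes another syntaxin family member, so the peak falls in the windows of both genes. The other pooled region of snb-1 was weak, with a signal value of 28.5 at rank 25608.

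Unc-64 (WBGene00006798, III:13277258-13283887, plus strand) encodes syntaxin, a SNARE of the plasma membrane. Its optimal peak, at III:13278086-13278481, was not upstream but in intron 2, 1023 bp downstream of the nearest start. The signal value was 156.0 at rank 531 in the pooled list, with 106.8 at rank 508 in replicate 1 and 49.6 at rank 610 in replicate 2. The q-values were 6.06e-04, 5.78e-04 and 0.00410, and the replicate summits lay 16 and 39 bp from the pooled one. The peak was therefore found at a similar rank in the 3 lists, below that of snb-1. The signal value at snb-1 was 8.20 times that at unc-64 in the pooled list, 8.29 times in replicate 1 and 7.96 times in replicate 2.

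Upstream of unc-64 there were 2 weaker pooled regions. The region 1357 bp upstream had a signal value of 67.4 at rank 1681 and a q-value of 0.0973. It had a partner in replicate 1, at rank 1506 with a q-value of 0.0415, and none within 100 bp in replicate 2. The region 1146 bp upstream had a signal value of 46.6 at rank 4884, and its partners ranked 5521 and 24617. Neither was in the optimal set, and both lay further upstream than the promoter as defined above.

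Ric-4 (WBGene00004364, V:10261131-10270314, minus strand) encodes SNAP-25, the other plasma membrane SNARE. Within the window its strongest region lay in an intron at V:10263625-10264020, 1080 bp upstream of an internal start, with a pooled signal value of 45.6 at rank 5325 and a q-value of 0.442. The replicate 1 partner had a signal value of 31.7 at rank 5238, and the replicate 2 partner had 13.4 at rank 21983. The rank in replicate 2 was far below the others, and by the rule ric-4 had no optimal peak.

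An optimal peak did lie further upstream of ric-4, at V:10273557-10273952, 3441 bp from the start and 1441 bp past the limit of the rule. It was found when the window was widened to 5000 bp and is described after its values were seen. The signal value was 109.6 at rank 828 in the pooled list, 68.6 at rank 919 in replicate 1 and 42.1 at rank 773 in replicate 2, with a pooled q-value of 1.81e-03. The peak thus ranked similarly in the 3 lists and above those of egl-21 and unc-18. It lay in no other protein-coding gene's window of 2000 bp. The nearest coding gene is Y22F5A.11, whose end lies 1647 bp away, with the summit 1891 bp downstream of its start, and ric-4 is the next nearest. The 101 bases around the summit hold TTGCGAAA, in capitals, with its centre 41.5 bp upstream of the summit on the gene's strand, and also CACGTG.
ric-4 far peak, V:10273705-10273805, minus strand: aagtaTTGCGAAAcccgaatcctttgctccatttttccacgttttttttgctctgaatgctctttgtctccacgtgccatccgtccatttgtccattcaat

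Unc-18 (WBGene00006757, X:7682896-7686037, plus strand) encodes the Sec1/Munc18 protein that binds syntaxin and assists SNARE assembly. Its optimal peak, at X:7680828-7681223, lay 1870 bp upstream, close to the edge of the window. The signal value was 80.3 at rank 1281 in the pooled list, 52.8 at rank 1327 in replicate 1 and 27.6 at rank 1797 in replicate 2. The q-values were 0.0246, 0.0253 and 0.0860, so replicate 2 alone did not reach 0.05. The peak was thus close to the limit of the optimal set.

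Other annotated genes lay nearer to this summit than unc-18. It was 14 bp from the tRNA gene WBGene00023016 (X:7681040-7681111, plus strand), 9 bp from the non-coding RNA gene F27D9.9 and 407 bp upstream of a start of stn-2, which encodes a syntrophin. Among all optimal peaks, 61 of 1290, or 4.73%, lay within 200 bp of a tRNA gene, and 1 of the 4 optimal peaks of the members did. Whether the signal there belongs to unc-18, to stn-2 or to the tRNA gene was not tested.

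Unc-13 (WBGene00006752, I:7422785-7454116, plus strand) encodes a large protein that primes docked vesicles for fusion. It had 15 pooled regions, the most of the 8 genes, in the longest window, 33332 bp. The strongest had a signal value of 64.4 at rank 1872 in the pooled list, with partners of 35.5 at rank 3496 in replicate 1 and 23.5 at rank 3159 in replicate 2. Its pooled q-value was 0.117, and it lay 47 bp downstream of an internal start, in coding sequence. In replicate 1 another region was the strongest, with a signal value of 39.1 at rank 2549, 1467 bp upstream of the gene. So neither list order nor position was as steady as at snb-1 or unc-64.

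Snt-1 (WBGene00004921, II:6810963-6816433, plus strand) encodes synaptotagmin, the calcium sensor of the synaptic vesicle. It had a single pooled region, 1634 bp upstream at II:6809131-6809526, with a signal value of 33.0 at rank 17012 and a q-value of 0.585. No replicate 1 region lay within 100 bp of it, and the replicate 2 partner lay at rank 10879. The strongest region of snt-1 was in a different place in each list, being 3936 bp downstream of a start in replicate 1 and 2450 bp downstream in replicate 2. No repeated region was found at snt-1.

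Egl-3 (WBGene00001172, V:10169177-10173753, minus strand) encodes a proprotein convertase, which makes the first cut in neuropeptide precursors. Its strongest region, in intron 1 at V:10172738-10173133, had a signal value of 44.4 at rank 5906 in the pooled list, 30.3 at rank 6242 in replicate 1 and 19.7 at rank 6353 in replicate 2. The ranks were close to each other, but the pooled q-value was 0.463, and the summit in replicate 2 was 91 bp from the pooled one. Egl-3 had no optimal peak.

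Egl-21 (WBGene00001189, IV:10478442-10481844, minus strand) encodes the carboxypeptidase that removes basic residues after that cut. Its optimal peak, at IV:10481660-10482055, had its summit 14 bp upstream of the annotated transcript start. Among the 4 optimal peaks it was the nearest to an annotated start of its own member gene. Where transcription itself begins was not tested. The signal value was 83.7 at rank 1200 in the pooled list, 47.3 at rank 1618 in replicate 1 and 30.5 at rank 1375 in replicate 2. The q-values were 0.0188, 0.0603 and 0.0455, so replicate 1 alone did not reach 0.05. The position was steady, with replicate summits 1 and 0 bp away, while the strength was near the limit of the optimal set. Snb-1 had 15.3 times the signal value of egl-21 in the pooled list, 18.7 times in replicate 1 and 12.9 times in replicate 2.

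A stronger optimal peak lay just outside the egl-21 window, at IV:10483720-10484115, 2074 bp upstream and 74 bp past the limit. Its signal value was 198.0 at rank 360 in the pooled list, 130.3 at rank 366 in replicate 1 and 66.8 at rank 408 in replicate 2. It lay 192 bp upstream of ced-5, which acts in the engulfment of dying cells, and 261 bp upstream of F01D4.5, both nearer than egl-21. Neither TTGCGAAA nor any other of the 7 words searched lay within 50 bp of this summit, and its sequence is not shown.

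**Figure D1:**
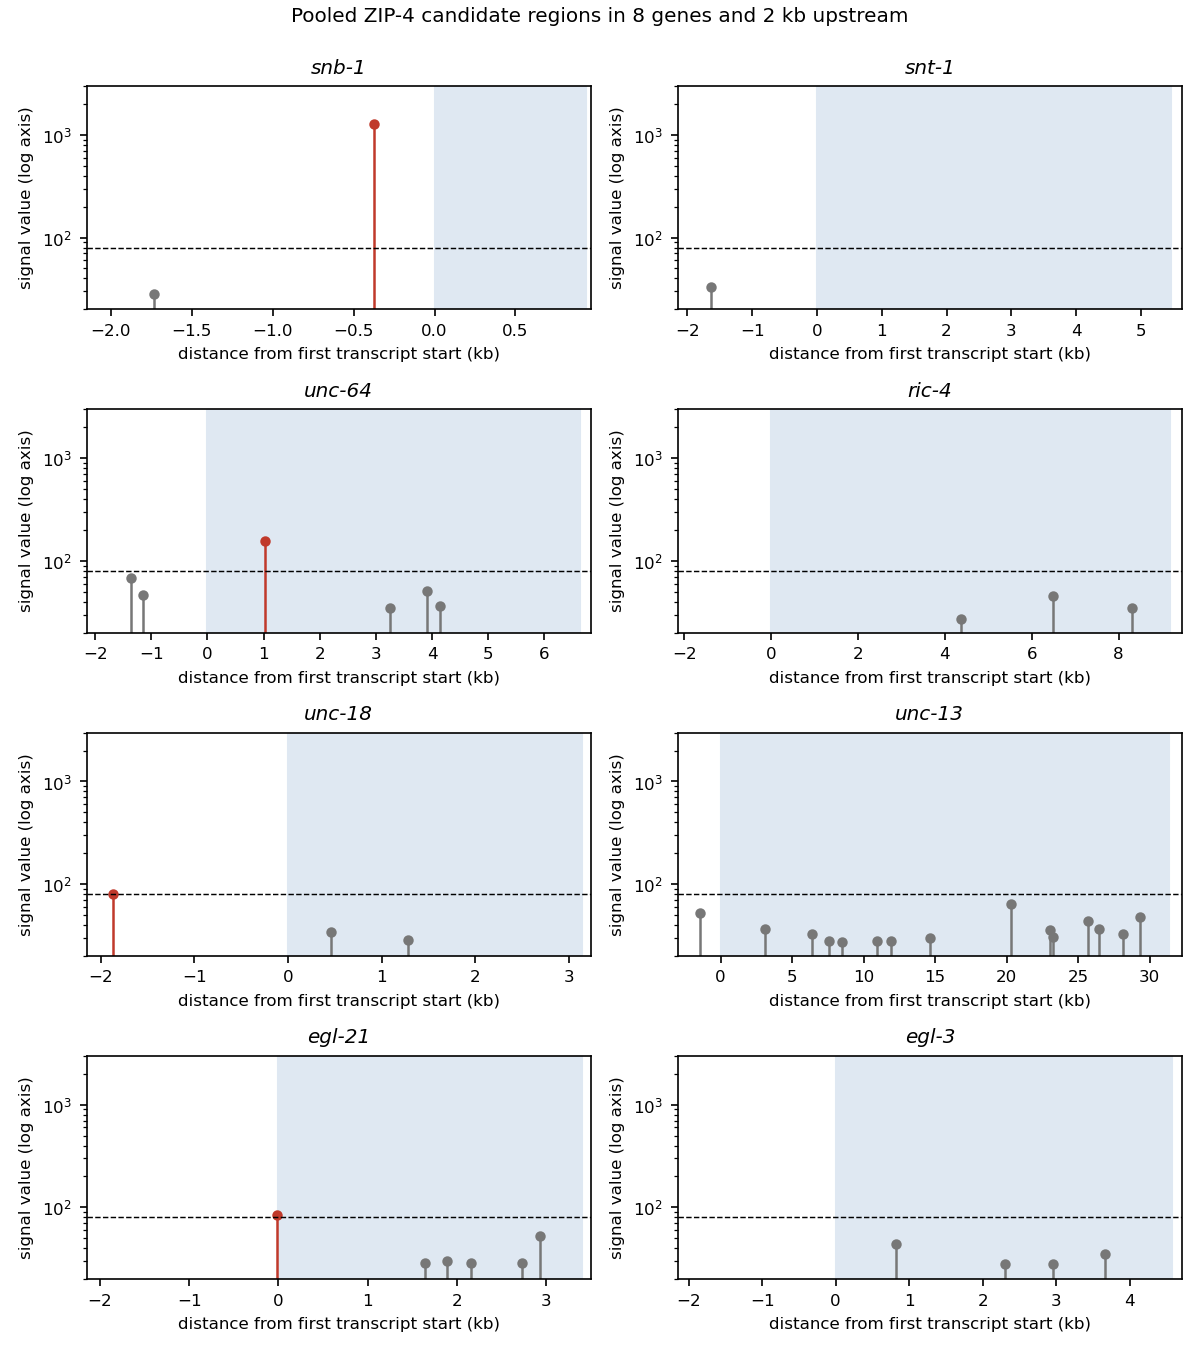
Pooled regions at each of the 8 genes, with distance of the summit from the first transcript start in kb on the x axis and signal value on a log y axis. Red marks optimal peaks, grey marks other pooled regions, shading is the gene and the dashed line is the lowest optimal signal value, 79.97. Snb-1 stands at 1279.4, unc-64 at 156.0 inside the gene, and egl-21 (83.7) and unc-18 (80.3) lie just above the line.

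The limit of the optimal set fell among values that hardly differed. The last peaks inside had signal values of 79.98 and 79.97, and the first regions outside had 79.89 and 79.78, with a q-value of 0.0252 for each. Egl-21 at 83.7 and unc-18 at 80.3 were just inside, and the nearest regions of the members outside were those of unc-64 at 67.4 and unc-13 at 64.4. The rank plot of the strongest region per gene shows the same separation, with snb-1 far above, unc-64 next, egl-21 and unc-18 about the limit and 4 genes below it.

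**Figure D2:**
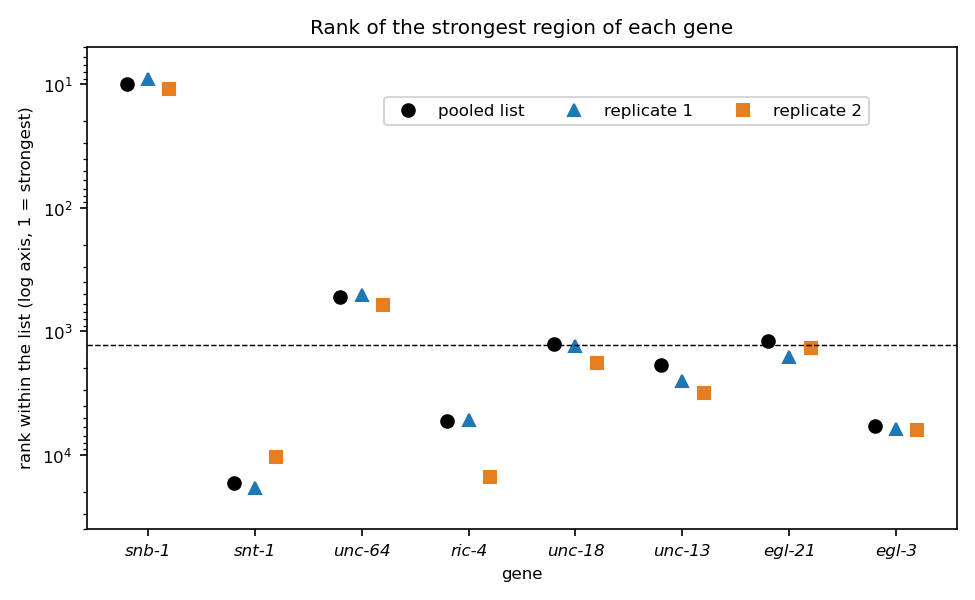
Rank of the strongest region of each gene on an inverted log axis, in the pooled list (black circles), replicate 1 (blue triangles) and replicate 2 (orange squares), with a dashed line at rank 1290. Snb-1 (ranks 9 to 11) and unc-64 (508 to 610) lie above the line in each list, whereas egl-21 and unc-18 lie above it in the pooled list alone.

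In all, the 8 genes held 40 pooled regions, of which 21 were in introns, 11 in coding sequence and 8 upstream. Summits were found within 100 bp in both replicates for 14 of the 40, in 1 replicate for 19 and in neither for 7. The 4 optimal peaks were among the 14. Of the 36 others, whose signal values ran from 27.0 to 67.4, 10 were repeated in both, or 27.8%, beside 21.4% of all pooled regions outside the optimal set. Of all optimal peaks, 1218, or 94.4%, were repeated in both.

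The windows searched had a median of 7024.0 bp at the 8 genes and 4027.0 bp over all protein-coding genes, with medians of 0.595 and 0.290 pooled regions per kb. The latter median counts 5182 of 19973 genes that had no pooled region, whereas each of the 8 had at least 1. The 8 were also chosen with these lists known, so nothing is read from the difference. Snt-1 had the lowest density of the 8, with 0.134 per kb, and egl-21 had the highest, with 1.11.

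The word TTGCGAAA was picked out in these data by earlier work on the whole peak set, so its presence at a member's peak is a description. Both strands were searched, and the whole word had to lie within 50 bp of a summit, while distances are given to the centre of the word. It occurred at 217 of 1290 optimal peaks, or 16.8%, and at 323 of the other pooled regions, or 1.13%. At snb-1 its centre lay 22.5 bp downstream of the summit and at unc-64 31.5 bp downstream, in terms of the gene's direction. The summits of unc-18 and egl-21 held none of the 7 words searched, which says only that these letters were not within 50 bp.

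The other words included a looser C/EBP word, written TTACNNAA or TTGCNNAA, where N is any base, which also counts TTGCGAAA. The C/EBP word was at 26.5% of optimal peaks and 16.2% of other pooled regions. Among its exact forms TTACGAAA was at 1.86% and 0.620% and TTGCGCAA at 1.16% and 0.178%. Of the words that are not forms of the C/EBP word, TGACGT was at 5.35% and 3.95% and CACGTG at 3.49% and 2.29%. GAGAGAGA, which can overlap itself, was at 5.19% and 1.32%. At the members, TGACGT lay 14.5 bp downstream of the unc-64 summit, on the gene's strand, and was also at the unc-13 region of rank 6060. Beside the TTGCGAAA copies at snb-1 and unc-64, the C/EBP word was at the unc-13 region of rank 12449. GAGAGAGA was at both upstream regions of unc-64 and at the unc-13 region of rank 3287.

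Most copies of TTGCGAAA in these genes were not at a pooled summit. The 8 windows, 80679 bp in sum, held 8 copies, of which the copies at the optimal peaks of snb-1 and unc-64 were the only 2 whose centre was within 50 bp of a pooled summit. Snt-1 held 2 copies, both in introns and 4020.5 and 6501.5 bp from its single region. Egl-21 held 1 copy 746 bp upstream of its start, 732.5 bp from the optimal summit, and unc-18 and egl-3 held none. By the same distance to the centre, 242 of 7892 copies in the genome, or 3.07%, lay within 50 bp of an optimal summit and 584, or 7.40%, within 50 bp of a pooled one. The base composition of the 101 bases shown above was 41.6% G and C for snb-1, 33.7% for unc-64 and 42.6% for unc-18. For egl-21 it was 43.8% over the 64 bases shown, which are not centred on the summit. The median over optimal peaks was 46.5%.

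Genes with ranks most like those of snb-1 and egl-21 were taken from 5553 genes whose strongest region was found in both replicates. The measure was the distance between the log10 ranks in the 3 lists. Genes known only by a sequence name and genes that share the region were passed over, so the nearest named genes are given. The nearest to snb-1 were col-94, a collagen gene, and dhc-4, a dynein heavy chain gene, which share a region at ranks 11, 11 and 10, at a distance of 0.105. Next was icd-1, which encodes a subunit of the nascent polypeptide-associated complex, at ranks 13, 12 and 13 and a distance of 0.184. The nearest to egl-21 were srt-52, a chemoreceptor gene, at 0.0338, fasn-1, the fatty acid synthase gene, at 0.0358, and rbr-2, a histone demethylase gene, at 0.0427. The region of rbr-2, with a signal value of 79.2, was just outside the optimal set.

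A wider list of 77 genes of the same pathway was divided into 7 roles. An optimal peak lay in the window of 9 of them, or 11.7%, beside 7.91% of protein-coding genes, and in 6 the peak was in a promoter. Without the 8 members, 5 of 69 genes, or 7.25%, had one. The median of the strongest pooled signal value was taken over genes with a pooled region. This left out 3 listed genes, none of them members, and 5182 of 19973 protein-coding genes. The median was 72.3 for the members, 44.6 for the other listed genes and 39.0 for protein-coding genes. Thus the other genes of the pathway had optimal peaks about as often as protein-coding genes at large. The lengths of the windows were not matched in this comparison.

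Among the 13 genes of the core fusion machinery, 3 (23.1%) had an optimal peak, beside 7.91% of protein-coding genes. They were snb-1, unc-64 and unc-18, all members chosen with their peaks known, and no other gene of this role had one. Shares over the 7 roles ran from 0 to 23.1%, but each role held few genes. Nothing is therefore read from differences between roles. Of 7 synaptotagmins, snt-2 alone had an optimal peak, with a signal value of 96.2 at rank 981 and replicate ranks of 943 and 2623. Its summit, at III:793593-793988, lay 58 bp upstream of snt-2 and 509 bp upstream of rps-29, a ribosomal protein gene. None of 10 active zone genes had one. The strongest of these was syd-2, which encodes liprin-alpha, a scaffold of the active zone, with a signal value of 76.9 at rank 1365 and a q-value of 0.0297.

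Of 14 genes for vesicle membrane proteins, recycling and transport, 3 had an optimal peak. Dpy-23, a subunit of the AP-2 clathrin adaptor, had a signal value of 211.3 at rank 332, 285 bp upstream, and replicate ranks of 321 and 338. Dyn-1, the dynamin gene, had 113.7 at rank 789, 670 bp upstream, and replicate ranks of 1017 and 684. Scm-1, which encodes a secretory carrier membrane protein, had 154.9 at rank 538, but this summit was 1667 bp upstream of scm-1 and 35 bp upstream of tub-2. The dpy-23 and dyn-1 peaks were thus in promoters and within the 1290 strongest regions of each replicate. The scm-1 peak, with replicate ranks of 761 and 302, was also within the 1290 strongest of each.

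None of 12 genes for transmitter synthesis and vesicle loading had an optimal peak. Unc-25 and unc-47, the GABA synthesis and GABA transporter genes, had no pooled region, as was so for 5182 of 19973 protein-coding genes. Cat-1, the vesicular monoamine transporter gene, was the strongest of the 12 with 63.8. Of 11 neuropeptide processing genes egl-21, a member, alone had an optimal peak. The strongest of the others was pgal-1, which encodes a peptide amidating lyase, with 66.5. Of 10 dense core vesicle genes unc-108, which encodes the small GTPase RAB-2, had 2 optimal peaks, with 162.0 at rank 503 and 102.4 at rank 906. Unc-31, which encodes the CAPS protein of dense core vesicle release, was the strongest of the rest with 55.2. The plot by role shows snb-1 alone above the other listed genes, and most of the list below the optimal limit.

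**Figure D3:**
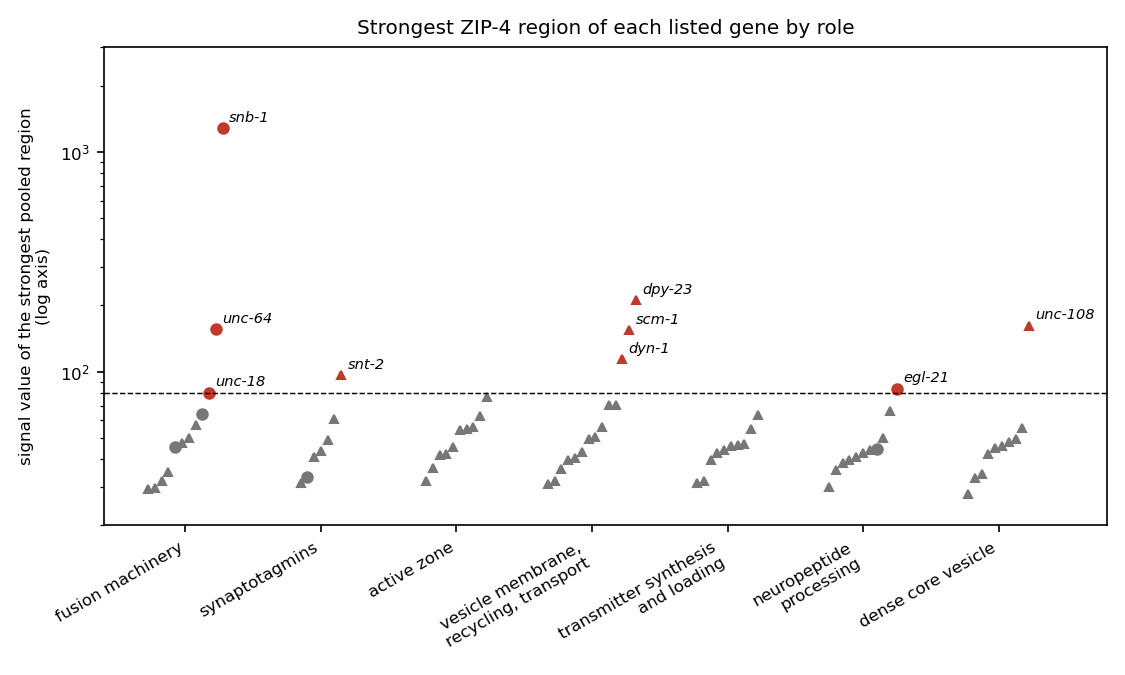
Signal value of the strongest pooled region of each listed gene, on a log axis, by role, with circles for the 8 members, triangles for other genes, red for genes with an optimal peak and a dashed line at 79.97. The 3 genes with no pooled region (snb-5, unc-47 and unc-25) are not drawn, and none of the active zone or transmitter genes passes the line. These roles hold 10 and 12 genes, and 7.91% of protein-coding genes had an optimal peak, so nothing is read from this.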

How the data were processed

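Peak lists from ZIP-4::EGFP ChIP-seq of starved L1 larvae were used, in narrowPeak format on ce11. Per the accompanying description of the files, the authors made 1 list per replicate and 1 from pooled reads as input to the irreproducible discovery rate (IDR) method, each against the same control alignment, and deposited the optimal set kept by IDR. The signal value of each peak was deposited by the authors on a scale that is not stated. The q-value was computed back from the deposited −log10 q-value, which is set largely by rank and has a lower bound in each list. The sources used here give no aligner, peak caller, IDR threshold or depth. The labels name zip-4 as the antibody in one field and GFP in the description, which was followed.

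Scripts in Python 3.11.15 with numpy 2.4.6 and matplotlib 3.10.9 assigned summits to genes of Ensembl release 115 (WBcel235, the same assembly as ce11). A summit could count for several genes, and was called repeated when a replicate summit lay within 100 bp. Words were searched within 50 bp, on both strands. The scripts were tested on simulated peaks. The 8 members, the 77 pathway genes, the words and the alternatives were chosen with earlier results of these data known. Named genes were the members, listed genes with an optimal peak, the strongest other gene of each role and genes sharing a member's optimal summit. The 3 genes most like snb-1 and egl-21 in rank were added, leaving out genes known only by a sequence name. Peaks past 2000 bp were added after their values were seen. With 1 group no condition was compared and no p-value was computed.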

Additional observations from a re-analysis of the deposited data

How the results depend on the processing

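Of 50 alternatives tried for counted results, 33 stayed within 1.5 times the value reported, as did 17 of 22 alternatives for ranks. The 4 members with an optimal peak became 1 (unc-64) with gene bodies only, 2 (snb-1 and egl-21) with promoters, 2 (snb-1 and unc-64) with the stronger 50% of the optimal peaks, and 2 to 2 when a replicate was left out and the 1290 strongest regions of the other were used (snb-1 and unc-64 each time). They became 3 without unc-18 when peaks near tRNA genes were left out, and 5 with ric-4 added at 5000 bp upstream, where 11.5% of protein-coding genes had one. The share of protein-coding genes moved from 7.91% to 1.55% with gene bodies only, 4.36% with the stronger peaks, and 5.05% when each summit went to its nearest coding gene, an alternative added after seeing the data. The 9 pathway genes became 2 and 5 under the first 2 of these. At a q-value of 0.05 the 4 members became 1 with gene bodies and 2 with promoters, and 2 at a q-value of 0.01. In replicate 1 alone they were snb-1, unc-64 and unc-18, and in replicate 2 alone snb-1, unc-64 and egl-21. The 14 repeated regions became 8 within 50 bp and 2 among the strongest regions of each replicate. The 2 optimal peaks with the C/EBP word became 0 when the whole word had to lie within 25 bp of the summit (the snb-1 word, centred 22.5 bp away, runs past that limit) and 4 over the whole region, where 55.3% of optimal peaks and 50.5% of other pooled regions hold it. Beyond the construction of each alternative, the cause was not tested. No paired analysis was possible because there was a single group. Depth is not known, so the limit it sets on weak regions is not known either.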
